A study of Mus musculus with 49 samples.

Results

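The MYC, MAX and MXD genes are the transcription factor genes of 1 dimerization network, and the 10 members described here were taken by symbol: Myc, Mycn, Mycl, Max, Mxd1, Mxd3, Mxd4, Mxi1, Mnt and Mlx. All 10 were found among the 20489 genes of the RNA-seq tables, and all 10 were tested in every comparison. The data are 49 libraries of mouse embryonic stem cells, in which p53 was activated by doxorubicin, with or without the chromatin reader Trim24. In the time course, a clonally picked degron line, whose endogenous Trim24 carries an FKBP12(F36V)-V5 tag, received 1 µM doxorubicin for 2, 4, 8 or 12 h, either with 500 nM dTAG13 for the same hours to degrade Trim24 or without it, and untreated cells of the line served as 0 h (3 libraries in each of 9 groups). The uninduced experiment compared this line after 4 h of dTAG13 alone with untreated cells (3 libraries each). The RING-domain experiment compared 3 groups after 4 h of doxorubicin (4 libraries each): a line whose endogenous Trim24 has mutated cysteines in its RING domain, named ligase-null, the degron line with dTAG13, and the degron line without it. Wild-type TC-1 cells of strain 129S6/SvEvTac were compared after 4 h of doxorubicin and untreated (2 libraries each). All were grown in serum with LIF. A treatment label of the untreated libraries of the uninduced experiment names p53 activation, whereas their titles and the series' design name them untreated, and the titles were followed: the p53 target Mdm2 was at 178 to 189 CPM (reads scaled to library size) in them, against 862 to 910 CPM in the activated Trim24-expressing libraries of the RING-domain experiment.

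MYC proteins bind DNA as heterodimers with MAX, at the E-box CACGTG, and recruit acetyltransferases and elongation factors to genes of cell growth, ribosome production and metabolism. MXD proteins, including MXI1, and MNT compete for MAX and for the same sites, where they bring SIN3 and histone deacetylases, so that the balance of MYC and MXD partners sets the use of E-boxes. MLX is a MAX-like protein that pairs with MNT, MXD1, MXD4 and the glucose-sensing MONDO proteins. In embryonic stem cells MYC and MYCN support self-renewal downstream of LIF, and both proteins and their mRNAs are short-lived.

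Sequences of the start sites are given for the members whose promoters hold an E-box, and for the 3 members called changed on p53 activation in both the degron line at 4 h and wild-type cells (Mycn, Mxd1 and Mxd4). RefSeq windows of 300 bases on GRCm38.p6, 250 before and 50 after the start, were matched by symbol for 9 members in 11 windows. Myc had no matched window and was not searched. CACGTG, which reads the same on both strands, was in the window of 4 of the 9 members. By window, it was in 4 of the 11 member windows and in 7.15% of all 32851 windows. A match is a description of the letters. The 30 bases around each E-box are shown with the E-box in capitals, Mxd4 at chr5:34187912-34187941 (minus strand), Mnt at chr11:74830789-74830818 (plus strand), Mlx at chr11:101087238-101087267 (plus strand) and Max at chr12:76962234-76962263 (minus strand).
Mxd4: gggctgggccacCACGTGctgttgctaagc
Mnt: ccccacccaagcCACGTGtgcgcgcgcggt
Mlx: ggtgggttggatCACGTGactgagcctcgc
Max: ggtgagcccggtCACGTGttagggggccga
The first base of the E-box lay 219 bases before the RefSeq start of Mxd4, 123 before that of Mnt, 40 before that of Mlx and 3 before that of Max, where it spans the start.

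The bases ahead of the outermost annotated start are given for the 3 members called in both lines, Mxd4 at chr5:34187721-34187960, Mxd1 at chr6:86669162-86669409 and Mycn at chr12:12941915-12942086, all on the minus strand, with any E-box in capitals.
Mxd4: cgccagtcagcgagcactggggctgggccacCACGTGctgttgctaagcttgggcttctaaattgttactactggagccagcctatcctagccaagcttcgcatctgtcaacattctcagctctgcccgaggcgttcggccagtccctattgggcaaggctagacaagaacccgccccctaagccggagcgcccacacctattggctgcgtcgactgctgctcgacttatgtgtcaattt
Mxd1: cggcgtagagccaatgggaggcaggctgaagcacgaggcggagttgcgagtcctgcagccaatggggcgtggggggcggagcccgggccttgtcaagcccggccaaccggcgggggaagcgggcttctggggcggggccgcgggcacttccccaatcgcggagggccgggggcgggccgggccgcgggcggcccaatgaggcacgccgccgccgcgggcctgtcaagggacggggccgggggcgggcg
Mycn: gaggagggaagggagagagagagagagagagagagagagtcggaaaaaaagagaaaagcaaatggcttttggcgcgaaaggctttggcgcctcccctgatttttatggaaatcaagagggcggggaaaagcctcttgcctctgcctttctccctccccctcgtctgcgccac
The 10-base unit of the p53 response element was found in 1 of the 11 member windows, that of Mycl, and in 8.36% of all windows, on either strand. No match says only that these letters are not in the window.

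On mm10 (GENCODE M21) the MYC genes lie at chr15:61985391-61990374 (plus) for Myc, chr12:12936093-12941914 (minus) for Mycn and chr4:122995652-123002485 (plus) for Mycl, and Max lies at chr12:76937269-76962201 (minus). The antagonists lie at chr6:86647042-86669161 (minus) for Mxd1, chr13:55325168-55329823 (minus) for Mxd3, chr5:34173883-34187720 (minus) for Mxd4, chr19:53310518-53375810 (plus) for Mxi1 and chr11:74830920-74845725 (plus) for Mnt, and Mlx lies at chr11:101087277-101092207 (plus). Reads were counted over exons without strand. Genes on the opposite strand share 514 exon bases with Mxd4, 385 with Mlx, 194 with Mxi1 and 105 with Mxd3. Strand therefore did not assign reads of these stretches, and whether they were left out of the counts was not checked.

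Reads over genes ranged from 14422098 to 35185256 per library (median 19520026), and member reads ranged from 37 for Mycn after 8 h of activation to 3537 for Mycn in uninduced cells. Replicate pairs differed by 2.08 to 27.6 times the sampling noise (chi-square per degree of freedom over genes), so no library counted as a repeat of another. The labels do not say that replicates came from separate cultures, and p-values then measure only the spread between these libraries. Trim24-expressing replicate 7 of the RING-domain experiment stood apart over all genes: its pairs gave 26.7 to 27.6 times the noise, against 3.0 to 4.59 among the other 3 libraries of that group. Mdm2 was higher after activation in each library of the degron line and of wild-type cells, between 546 and 1194 CPM where Trim24 was intact, against 177 to 258 CPM in untreated cells of the same 2 experiments. On Trim24 loss its log2 fold change was 0.20 at 2 h and −0.02 at 4 h. It was −0.36 at 8 h and −0.68 at 12 h (limma adjusted p = 4.2e-04 and 8.0e-09), so this marker differed between the groups at late times. Trim24 is degraded as a protein, so its mRNA does not check that label, and it was at 119 to 194 CPM at 2 and 4 h of activation without dTAG13. Trim24 mRNA itself fell with activation in these cells without dTAG13, whose Trim24 protein was not measured in these RNA data. Its log2 fold change from 0 h was −0.80 at 4 h, −1.65 at 8 h and −1.59 at 12 h (limma adjusted p = 3.3e-12, 1.0e-49 and 2.9e-14). Embryonic stem cell markers (7 genes) were read in every library, and their summed level was 965 to 1075 CPM after 12 h of activation with Trim24, against 4799.7 to 4868 CPM at 0 h. No library lacked p53, so doxorubicin and p53 cannot be told apart, and in bulk RNA fewer cells of a type and less RNA per cell cannot be told apart. Only the degron line received dTAG13, so the compound and Trim24 loss cannot be told apart either.

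At 0 h the network was led by Mlx, Mycn, Myc and Max. Levels between genes are compared as CPM per kb of merged exons (GENCODE M21), which counts exons of all isoforms. Mlx averaged 34.0 ± 0.72 CPM per kb, Mycn 31.1 ± 2.07, Myc 26.8 ± 1.48 and Max 24.1 ± 0.90 (SD, n = 3 each). Mlx and Mycn overlapped in range, as did Mxd3 and Mycl further down, whereas Myc lay above Max in each library. Mxi1 followed at 6.77 ± 0.35, then Mxd3 at 4.66 ± 0.09, Mycl at 4.57 ± 0.31 and Mnt at 3.62 ± 0.54 CPM per kb. Mxd4 (0.64 ± 0.06) and Mxd1 (0.40 ± 0.04) were the lowest. Untreated wild-type cells had the same 4 genes on top, at 36.3 ± 0.53 CPM per kb for Mlx, 27.1 ± 1.61 for Mycn, 23.1 ± 0.32 for Max and 19.2 ± 1.26 for Myc (n = 2). After 12 h of activation with Trim24, Mxd4 reached 8.37 ± 0.24 CPM per kb and overlapped Max (8.45 ± 0.39), and Mycn was lowest of the 10 at 1.07 ± 0.16.

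Upon p53 activation with Trim24 present, Mycn fell first, then Max, then Myc, whereas the means of Mxd1 and Mxd4 rose from each time to the next. By the rule below, Mxd1 and Mxd4 changed against 0 h from 4 h on. A gene was called changed at an adjusted p under 0.01 (limma, Benjamini-Hochberg over all genes tested) and a log2 fold change of 0.75 or more in either direction. By that rule 1 of 10 members changed at 2 h (Mycn), where 3.74% of all genes tested did, 4 at 4 h (18.7% of all genes), 7 at 8 h (45.3%) and 8 at 12 h (53.2%). All 4 comparisons share the 0 h libraries. Groups did not overlap for 4 members at 2 h (32.0% of all genes), 9 at 4 h (63.8%), 9 at 8 h (80.8%) and 9 at 12 h (84.4%), and from 4 h the member that overlapped was Mycl. The median log2 fold change of the 10 members was −0.10, −0.49, −1.0 and −1.06 at 2, 4, 8 and 12 h, beside 0.01, −0.01, 0.02 and 0.04 over all genes tested.

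**Figure D1:**
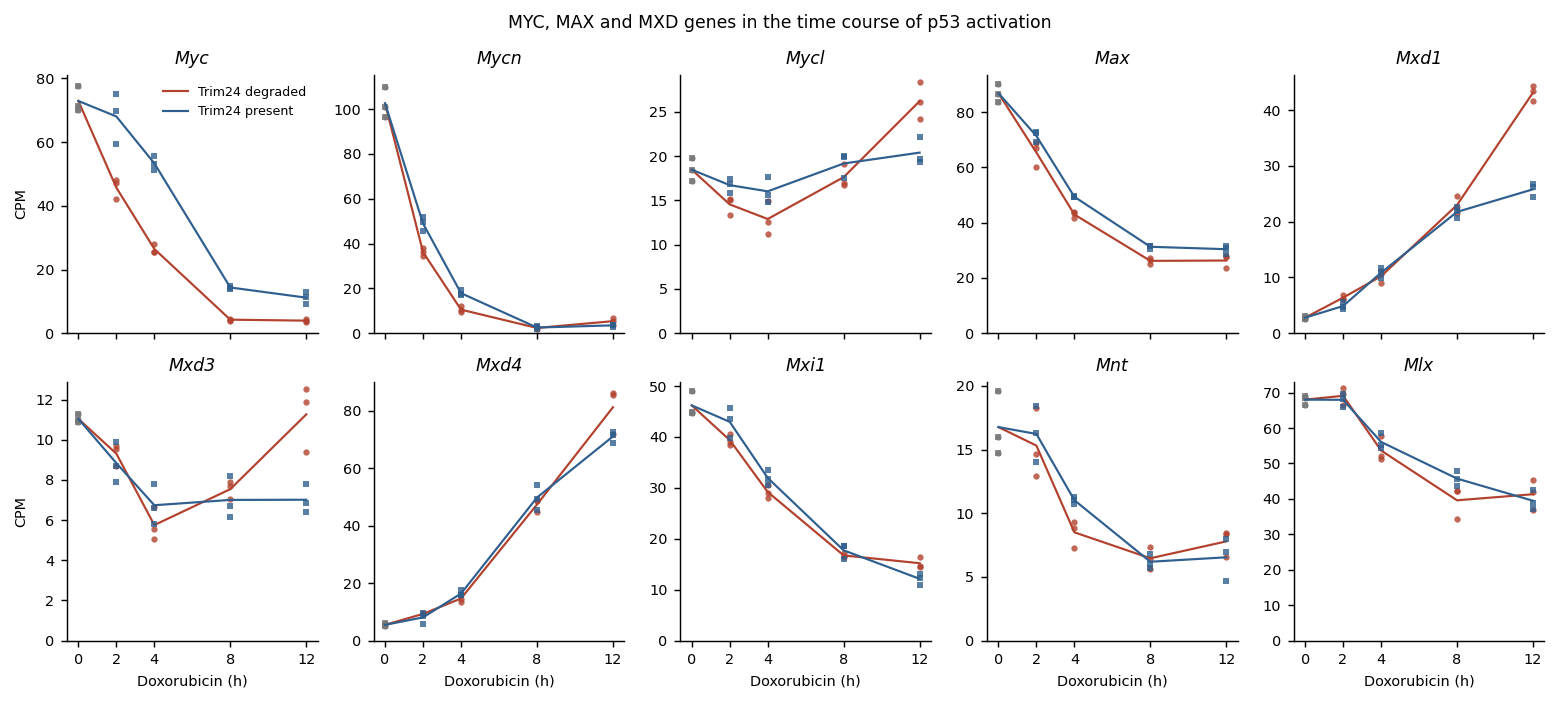
CPM of the 10 genes (y axis, linear, from 0) against hours of doxorubicin in the time course, with points for single libraries and lines through group means, for cells with Trim24 degraded (red circles) and Trim24 present (blue squares); the 0 h libraries (grey) are shared. The 2 courses of Myc do not overlap at any time after 0 h, those of Max lie close but do not overlap, those of Mxd1 do not overlap at 2 and 12 h, and those of Mxd3 do not overlap at 12 h.

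Mycn encodes the MYC paralog of early embryonic and neural cells, and it was the member that fell soonest and farthest. It was at 51.7, 49.6 and 45.5 CPM after 2 h, against 100.9, 110 and 96.6 CPM at 0 h. After 4 h it was at 17.6, 19.2 and 16.9 CPM, after 8 h at 3.15, 2.59 and 1.92 CPM and after 12 h at 2.94, 3.89 and 3.76 CPM. No library of 1 of these times overlapped the 0 h libraries, and from 2 to 8 h the times did not overlap each other, whereas 8 and 12 h did. The log2 fold change was −1.06 ± 0.07 at 2 h (SE; limma adjusted p = 4.0e-09), −2.50 ± 0.07 at 4 h (adjusted p = 2.2e-16), −5.16 ± 0.11 at 8 h and −4.73 ± 0.10 at 12 h (adjusted p = 4.4e-17). At 8 h the mean CPM was 2.5% of that at 0 h.

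Myc, the paralog used most widely in proliferating cells, was later. It was at 75.3, 69.6 and 59.3 CPM after 2 h, against 71.2, 77.5 and 70.1 CPM at 0 h, and the ranges overlapped (log2 fold change −0.10 ± 0.08, limma adjusted p = 0.43). After 4 h it was at 55.7, 53 and 51.3 CPM, below every 0 h library, with a log2 fold change of −0.45 ± 0.06 that did not reach the fold limit (adjusted p = 1.1e-06). After 8 h it was at 14, 14.2 and 15.0 CPM and after 12 h at 11.3, 9.20 and 13 CPM. These are log2 fold changes of −2.31 ± 0.08 and −2.68 ± 0.10 (adjusted p = 1.2e-56 and 1.7e-13). The first of these p-values, like the others at 8 h, comes from a fit in which limma took nearly all of the spread from the trend over genes; with limma fitted without trend and robust settings it was 2.5e-07, and the 7 calls at 8 h were made there too. The largest step of Myc was between 4 and 8 h (−1.87 ± 0.08), in which 6 of 10 members and 24.3% of all genes changed.

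Mycl, the third paralog, moved little with Trim24 present. Its CPM lay between 14.8 and 22.2 in the 12 activated libraries of the time course, against 17.2 to 19.8 at 0 h, and its log2 fold changes of −0.14, −0.20, 0.05 and 0.14 at 2, 4, 8 and 12 h all had a limma adjusted p of 0.051 or more. The sign of the last 2 turned with quantile normalization (−0.11 and −0.02) and with median centring (−0.16 and −0.08). The make-up of the MYC mRNA pool differed with time. Per kb, Mycn gave 49.8% ± 0.53 of the summed MYC signal at 0 h, Myc 42.9% ± 0.26 and Mycl 7.32% ± 0.32 (SD, n = 3). After 4 h Myc gave 67.6% ± 0.33 and Mycn 18.7% ± 1.25. After 12 h Mycl gave 49.5% ± 4.18, Myc 40.0% ± 4.45 and Mycn 10.5% ± 2.02. The ranges of Mycl (44.64% to 52.12%) and Myc (35.89% to 44.72%) overlapped there. These shares are ratios within a library, so the scaling between libraries does not enter them.

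**Figure D2:**
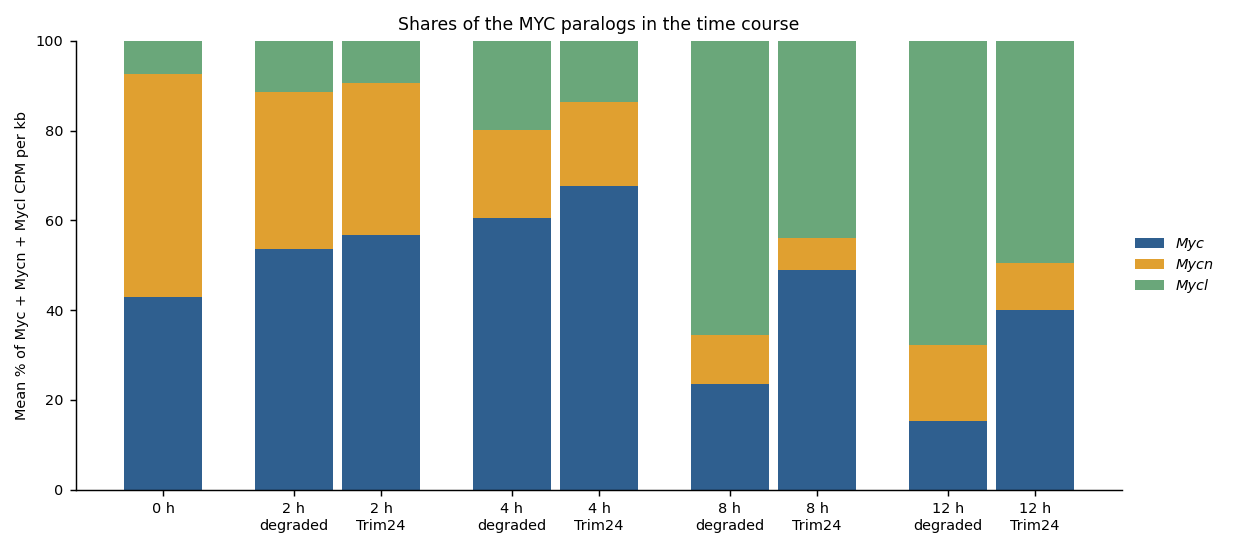
Mean share of Myc, Mycn and Mycl in their summed CPM per kb (y axis, percent), in 3 libraries per bar, by hours of doxorubicin in the time course with Trim24 degraded or present. Mycn held 49.8% at 0 h, Myc 67.6% at 4 h with Trim24, and Mycl 65.6% and 67.8% at 8 and 12 h with Trim24 degraded.

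Max, the shared partner of MYC and MXD proteins, fell by steps. It was at 49.2, 49.5 and 49.3 CPM after 4 h, against 86.4, 90.2 and 83.8 CPM at 0 h, and at 31.6, 30.6 and 31.5 CPM after 8 h. The groups did not overlap from 2 h on, where it was at 69.1 to 72.7 CPM. Its log2 fold change was −0.28 ± 0.06 at 2 h (limma adjusted p = 3.0e-03, under the fold limit), −0.81 ± 0.05 at 4 h (adjusted p = 6.2e-11), −1.46 ± 0.07 at 8 h and −1.50 ± 0.07 at 12 h. At 4 h the call was lost with quantile normalization (−0.74). Summed MYC signal per unit of Max, both per kb, was 1.21 ± 0.04 at 12 h and 2.59 ± 0.06 at 0 h.

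Mxd4, a MAX partner that recruits SIN3 in cells leaving the cycle, had the largest rise of the 10 at 8 and 12 h, and Mxd1 at 2 and 4 h. It was at 72.8, 71.6 and 68.7 CPM after 12 h, against 5.93, 4.95 and 5.49 CPM at 0 h. It was at 9.75, 8.52 and 5.92 CPM after 2 h, where 1 library overlapped the 0 h range, at 17.6, 15.7 and 15.8 CPM after 4 h and at 49.4, 45.6 and 54.3 CPM after 8 h. The log2 fold changes were 0.51 ± 0.15 at 2 h (limma adjusted p = 0.026, not called), 1.52 ± 0.10 at 4 h (adjusted p = 1.5e-10), 3.11 ± 0.10 at 8 h and 3.62 ± 0.09 at 12 h. Mxd1, the founding MXD gene, which is induced in differentiating cells, rose as well. It was at 26.2, 24.3 and 26.8 CPM after 12 h, against 2.64, 2.65 and 3.09 CPM at 0 h, and none of the 12 activated libraries overlapped 0 h. Its log2 fold changes were 0.73 ± 0.14 at 2 h (adjusted p = 1.4e-03, just under the fold limit), 1.83 ± 0.12 at 4 h (adjusted p = 1.5e-10), 2.81 ± 0.12 at 8 h and 3.05 ± 0.11 at 12 h (adjusted p = 3.4e-14). At 2 h Mxd1 was called by limma-voom on the reads (0.79) and when untreated replicate 3 (0.80), 2 h replicate 2 (0.79) or 2 h replicate 3 (0.76) was left out.

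The other antagonists fell. Mxi1, which encodes the MXD2 protein, was at 12.3, 11 and 13.1 CPM after 12 h, against 44.8, 44.9 and 48.9 CPM at 0 h (log2 fold change −1.90 ± 0.08, limma adjusted p = 6.7e-13), and it was called from 8 h (−1.37 ± 0.09). Mnt, the antagonist present in both resting and cycling cells, was at 4.68, 7.99 and 6.94 CPM after 12 h, against 16.0, 19.6 and 14.7 CPM at 0 h (−1.33 ± 0.17, adjusted p = 7.7e-06). Neither group overlapped 0 h at these times. Mxd3, the MXD gene of S phase and neural progenitors, was lower at 4, 8 and 12 h by −0.69, −0.64 and −0.63, with adjusted p of 2.6e-05, 5.8e-07 and 3.9e-05 but under the fold limit; it passed that limit with quantile normalization at all 3 times (−0.87, −1.08 and −1.11) with median centring at 8 and 12 h (−0.85 at both), and without replicate 3 at 4 h (−0.80) or 8 h (−0.75). It lies over Prelid1 on the opposite strand for 105 exon bases, and whether reads of that stretch entered its count was not checked. Mlx was at 42.4, 37.2 and 38.8 CPM after 12 h, against 69.1, 68.6 and 66.4 CPM at 0 h (−0.78 ± 0.07, adjusted p = 6.1e-09). Its call at 12 h ended with quantile normalization (−0.69) or without 12 h replicate 2 (−0.74), and it shares 385 exon bases with Psmc3ip on the opposite strand.

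The MXD genes and Mnt, summed per kb, stood at 1.78 ± 0.16 times the summed MYC genes after 12 h, at 1.46 ± 0.08 times after 8 h, at 0.46 ± 0.03 times after 4 h and at 0.26 ± 0.01 times at 0 h. Between 0 and 12 h Mxd4 and Mxd1 went from 0.64 and 0.40 to 8.37 and 3.65 CPM per kb. Mxi1, Mxd3 and Mnt went from 6.77, 4.66 and 3.62 to 1.78, 2.96 and 1.41. Mycn and Myc went from 31.1 and 26.8 to 1.07 and 4.11, and Mycl from 4.57 to 5.05. The ratio thus mixes rising and falling antagonists with the fall of Mycn and Myc. Most of the order in time was set between 2 and 8 h. Between 2 and 4 h, 3 of 10 members changed (9.80% of all genes): Mycn fell (−1.43 ± 0.08) and Mxd1 and Mxd4 rose (1.10 ± 0.12 and 1.02 ± 0.13; Mxd4 was not called with no filter, adjusted p = 0.027). Between 8 and 12 h no member was called by limma, where 6.42% of all genes were, 6 members had an unadjusted p under 0.05, and limma-voom called 0. Scaling bears on the later times: median centring moved the median of all genes to −0.19 at 8 h and −0.17 at 12 h, and quantile normalization to −0.11 and −0.12, from 0.02 and 0.04. At both times no called member turned its sign with either. Markers of other cell states moved with activation too: 5 genes of the 2-cell-like state summed to 831 to 936 CPM after 12 h with Trim24, against 41.3 to 50.1 CPM at 0 h, and 6 genes of fibroblasts or feeder cells to 45.0 to 56.7 CPM, against 15.5 to 18.6 CPM at 0 h. None of these 11 markers was at 0 in either group, and their part in the results was not tested.

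Myc fell on Trim24 loss at 4, 8 and 12 h of activation, and none of the MXD genes or Mnt was called at any time. By the same rule 2 of 10 members changed on Trim24 loss at 4 h (Myc and Mycn), where 1.15% of all genes did. At 8 h 1 member changed (1.58% of all genes) and at 12 h 1 member changed (4.11% of all genes), in both cases Myc. At 2 h limma called 0 of 10 (0.338% of all genes), with 3 members at an unadjusted p under 0.05, and limma-voom called 0. The Trim24-expressing libraries at each time are also those set against 0 h, so the columns of values are not independent. The length of Trim24 loss and of p53 activation changed together.

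Myc was at 42.0, 48.0 and 47.1 CPM in Trim24-degraded cells after 2 h, against 75.3, 69.6 and 59.3 CPM in Trim24-expressing cells. After 4 h it was at 25.6, 25.7 and 28.1 CPM in Trim24-degraded cells, against 55.7, 53 and 51.3 CPM with Trim24. The groups did not overlap at either time, and the degraded cells had 49.6% of the mean CPM at 4 h. After 8 h it was at 3.98, 4.2 and 4.62 CPM in degraded cells, against 14, 14.2 and 15.0 CPM with Trim24. After 12 h it was at 4.54, 3.93 and 3.42 CPM in degraded cells, against 11.3, 9.20 and 13 CPM with Trim24. Again no library overlapped, and the mean was 29.7% of that with Trim24 at 8 h and 35.5% at 12 h. The log2 fold changes were −0.57 ± 0.08 at 2 h (limma adjusted p = 7.5e-05, under the fold limit), −1.0 ± 0.07 at 4 h (adjusted p = 6.1e-11), −1.67 ± 0.12 at 8 h (adjusted p = 4.9e-39, and 1.3e-04 without trend and robust settings) and −1.41 ± 0.14 at 12 h (adjusted p = 2.9e-08). The effect at 8 h exceeded that at 4 h by −0.67 ± 0.13 (adjusted p = 1.3e-03; 0.254% of all genes passed this test of the difference). That difference was no longer called in limma without trend and robust settings (adjusted p = 0.076), with no filter (0.013), with all groups in the fit (0.012), or without replicate 3 of the 4 h cells with Trim24 (0.015) or with Trim24 degraded (0.018). The effects on Myc at 2 and 12 h were not shown to differ from that at 4 h (0.44 ± 0.11, adjusted p = 0.10, and −0.41 ± 0.15, adjusted p = 0.050; called with quantile normalization, −0.60, adjusted p = 7.4e-03), and 0.0787% of all genes passed the test of 2 h against 4 h.

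**Figure D3:**
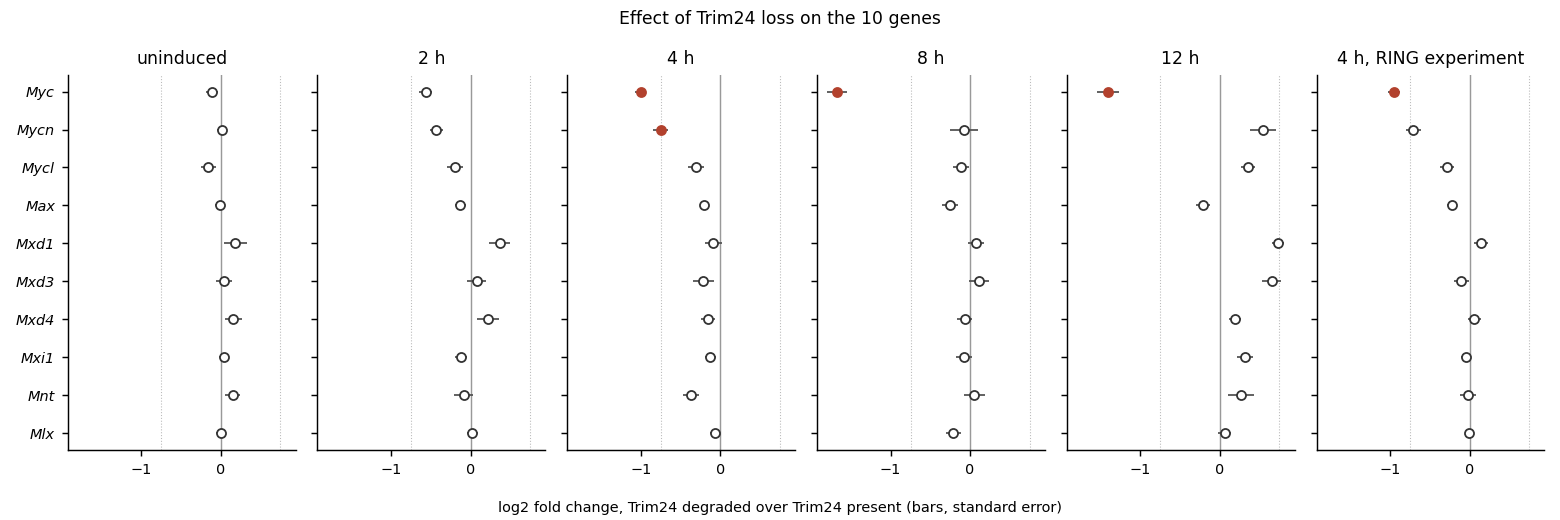
log2 fold change of Trim24-degraded over Trim24-expressing cells (x axis; bars, standard error) for the 10 genes in uninduced cells, at 4 times of the time course and in the RING-domain experiment; filled points were called changed by limma and dotted lines mark ±0.75. Myc is called at 4, 8 and 12 h and in the RING-domain experiment, and lies at −0.11 in uninduced cells.

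Mycn was lower early on Trim24 loss and not later. It was at 34.5, 38.0 and 36.1 CPM in degraded cells after 2 h, against 51.7, 49.6 and 45.5 CPM with Trim24 (−0.43 ± 0.08, limma adjusted p = 1.7e-03, under the fold limit). After 4 h it was at 12.1, 9.29 and 10.2 CPM in degraded cells, against 17.6, 19.2 and 16.9 CPM with Trim24. Neither pair of groups overlapped. The value at 4 h was −0.75 ± 0.10 (adjusted p = 7.3e-06), at the fold limit itself, and the call was lost with quantile normalization (−0.73), with median centring (−0.74), without trend and robust settings (adjusted p = 0.021), and without replicate 2 of the cells with Trim24 (−0.70), or replicate 2 (−0.67) or 3 (−0.73) of the degraded cells. After 8 h Mycn was at 1.96, 2.59 and 2.58 CPM in degraded cells, against 3.15, 2.59 and 1.92 CPM with Trim24, and the groups overlapped (−0.08 ± 0.17). After 12 h it was at 5.60, 6.70 and 3.90 CPM in degraded cells, against 2.94, 3.89 and 3.76 CPM with Trim24 (0.54 ± 0.17, adjusted p = 0.016, not called), and the lowest degraded library lay just above the highest one with Trim24.

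By 12 h the effect of Trim24 loss on several members was above that at 4 h. The effect of Trim24 loss at 12 h differed from that at 4 h for 5 of 10 members (limma, adjusted p under 0.01), where 12.0% of all genes did. These were Mycn (difference 1.29 ± 0.21, adjusted p = 1.0e-04), Mxd1 (0.82 ± 0.13, adjusted p = 4.3e-05), Mxd3 (0.87 ± 0.19, adjusted p = 1.5e-03), Mycl (0.67 ± 0.14, adjusted p = 1.3e-03) and Mxi1 (0.45 ± 0.12, adjusted p = 7.7e-03). Without trend and robust settings 2 of these were called, Mycn and Mxd1. That of Mxi1 was lost in 13 alternatives, among them leaving out replicate 1, 2 or 3 with Trim24 at 4 h, 1 or 2 with Trim24 at 12 h, 1 or 3 degraded at 4 h, or 1 degraded at 12 h (adjusted p of 0.011 to 0.032). Without replicate 2 with Trim24 at 12 h Mnt (0.79) and Myc (−0.54) were called as well, and without degraded replicate 3 at 12 h Mxd4 was (0.43), as it was with quantile normalization (0.41, adjusted p = 7.8e-03). Mxd1 was at 43.4, 44.3 and 41.7 CPM in degraded cells after 12 h, against 26.2, 24.3 and 26.8 CPM with Trim24, and the groups lay far apart. Its log2 fold change of 0.73 ± 0.08 (adjusted p = 1.0e-07) was just under the fold limit, which it passed with quantile normalization (0.76) and without replicate 3 of the cells with Trim24 (0.76) or of the degraded cells (0.76). At 2 h Mxd1 was at 6.10, 6.85 and 6.20 CPM in degraded cells, against 5.59, 4.43 and 4.63 CPM with Trim24, without overlap (0.37 ± 0.13, adjusted p = 0.35). At 4 h Mxd1 was at 11.1, 8.98 and 10.6 CPM in degraded cells, against 11.7, 9.88 and 11 CPM with Trim24, and overlapped.

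Mxd3 was at 11.9, 12.5 and 9.40 CPM in degraded cells after 12 h, against 6.85, 7.78 and 6.41 CPM with Trim24 (0.65 ± 0.12, limma adjusted p = 2.3e-04; 0.77 and called without replicate 3 of the degraded cells). Mycl was at 24.1, 28.4 and 26.1 CPM in degraded cells, against 22.2, 19.7 and 19.3 CPM with Trim24 (0.36 ± 0.09, adjusted p = 3.5e-03). Neither overlapped and neither reached the fold limit. Mxd4 was at 86.0, 85.5 and 72.1 CPM in degraded cells after 12 h, against 72.8, 71.6 and 68.7 CPM with Trim24 (0.19 ± 0.07, adjusted p = 0.053). At that time the summed level of 5 markers of the 2-cell-like state was 516 to 600 CPM in degraded cells and 831 to 936 CPM with Trim24, and that of 5 markers of primitive endoderm was 34.2 to 38.6 CPM in degraded cells and 23.2 to 25.4 CPM with Trim24; none of these 10 markers was at 0 in either group, and their part in the result was not tested.

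Max, Mxi1, Mnt and Mlx were not called on Trim24 loss at any time. Max was lower at each time in means, by −0.13 to −0.25, without overlap at any of the 4 times, and with limma adjusted p of 0.029 to 0.77. Mnt was at 9.34, 7.29 and 8.87 CPM in degraded cells at 4 h, against 10.7, 11.3 and 11.1 CPM with Trim24 (−0.37 ± 0.11, adjusted p = 0.023). Within libraries, the ratio of Mxd4 to Myc per kb was 3.56 ± 0.16 in degraded cells and 1.11 ± 0.07 with Trim24 at 8 h, and 6.60 ± 0.47 in degraded cells and 2.08 ± 0.40 with Trim24 at 12 h (SD, n = 3), with no overlap. It was 0.024 ± 0.003 at 0 h. The number of members whose groups did not overlap was 5 at 2 h (12.1% of all genes), 4 at 4 h (28.1%), 3 at 8 h (25.2%) and 7 at 12 h (44.0%).

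In uninduced cells no member was called on Trim24 loss by limma, where 0.0781% of all genes were. No member had an unadjusted p under 0.05, and limma-voom called 0. Myc was at 53.4, 57.4 and 49.3 CPM in degraded cells, against 64.2, 55.6 and 53.6 CPM in untreated cells, and overlapped (−0.11 ± 0.07, adjusted p = 0.76). Mycn was at 127.6, 109.6 and 117 CPM in degraded cells, against 115, 118 and 116 CPM in untreated cells, and overlapped as well (0.02 ± 0.06, adjusted p = 0.98). Groups did not overlap for 2 members, Mycl and Mxd4 (12.5% of all genes). The difference between uninduced and activated cells was not tested, since they belong to separate experiments. Markers of primitive endoderm were at 454 to 522 CPM in degraded and 462 to 505 CPM in untreated cells of this experiment, above 23.2 to 42.4 CPM in the time course.

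Wild-type cells, with intact Trim24 and no tag, changed in the same 3 genes that moved most in the degron line at 4 h. After 4 h of doxorubicin 3 of 10 members were called (10.3% of all genes): Mycn fell, and Mxd1 and Mxd4 rose. Mycn was at 25.4 and 27.1 CPM in activated cells, against 93.0 and 85.5 CPM in untreated cells. Mxd1 was at 9.78 and 10.1 CPM in activated cells, against 4.12 and 3.93 CPM in untreated cells. Mxd4 was at 15.4 and 15.7 CPM in activated cells, against 7.99 and 7.07 CPM in untreated cells. None of the 3 overlapped, and the log2 fold changes were −1.75 ± 0.09, 1.23 ± 0.13 and 1.01 ± 0.12. With 2 libraries a group limma took all of the spread from the trend over genes, so the limma adjusted p without trend and robust settings is given: 7.0e-04 for Mycn, 1.1e-03 for Mxd1 and 2.4e-03 for Mxd4. The call of Mxd4 was lost without activated replicate 1 (adjusted p = 0.011). Myc was at 42.3 and 39.8 CPM in activated cells, against 54.5 and 49.6 CPM in untreated cells, and Max at 60.0 and 61.7 CPM, against 84.0 and 82.3 CPM, which are log2 fold changes of −0.34 ± 0.09 and −0.45 ± 0.09, under the fold limit. All 10 members had groups without overlap, as did 66.4% of all genes. Whether the 2 lines differ was not tested. Embryonic stem cell markers were summed at 3077 to 3264 CPM in activated and 4689.7 to 4723 CPM in untreated cells, and their part in the result was not tested.

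In the RING-domain experiment, Myc was again lower in Trim24-degraded cells, in libraries that the time course did not use. Myc was at 15.1, 18.6, 14.2 and 16.9 CPM in degraded cells, against 31.5, 31.6, 32.1 and 31.1 CPM in Trim24-expressing cells, with a wide gap between the groups (−0.95 ± 0.07, limma adjusted p = 2.3e-12). It was 1 of 10 members called, where 1.15% of all genes were. Mycn was at 6.38, 7.63, 6.94 and 6.51 CPM in degraded cells, against 10.9, 11.4, 12.7 and 10.8 CPM with Trim24, and did not overlap. Its log2 fold change of −0.71 ± 0.09 (adjusted p = 5.3e-07) was under the fold limit, and passed it with median centring (−0.75) and without degraded replicate 5 (−0.76). Max was at 43.3, 50.5, 42.4 and 41.4 CPM in degraded cells, against 52.2, 52.1, 52.2 and 50.4 CPM with Trim24 (−0.22 ± 0.06, adjusted p = 6.3e-03, under the fold limit), and 1 degraded library overlapped. Groups did not overlap for 2 of 10 members, Myc and Mycn (22.2% of all genes). The 5 MXD and Mnt genes all overlapped between groups, with log2 fold changes of −0.11 to 0.14. Without Trim24-expressing replicate 7, the library that stood apart, Myc was again the 1 member called (−0.96), and Mycn and Max were at −0.73 and −0.24.

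The ligase-null line differed from degraded cells in Mycn. Myc was at 21.6, 19.7, 22.0 and 19.8 CPM in ligase-null cells, below every Trim24-expressing library and above every degraded one. Its log2 fold change was −0.60 ± 0.07 against Trim24-expressing cells (limma adjusted p = 3.5e-08) and 0.36 ± 0.08 against degraded cells (adjusted p = 6.0e-04), neither at the fold limit. Mycn was at 13.1, 14.1, 16.7 and 14.8 CPM in ligase-null cells, above every library of the other groups. It was 0.35 ± 0.09 against Trim24-expressing cells (adjusted p = 3.0e-03) and 1.06 ± 0.09 against degraded cells (adjusted p = 7.9e-11), the 1 call among 10 members in that comparison (6.68% of all genes). Mycl was at 12.3, 13, 11.8 and 12.3 CPM in ligase-null cells, below the 14.4 to 17.1 CPM of degraded and the 16.0 to 21.8 CPM of Trim24-expressing cells, by −0.64 ± 0.09 on the log2 scale against Trim24-expressing cells (adjusted p = 6.7e-07).

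Against Trim24-expressing cells limma called 0 of 10 members in the ligase-null line, where 6.95% of all genes were called; 6 members had an unadjusted p under 0.05, and limma-voom called 0. Without Trim24-expressing replicate 7 limma again called 0, with Myc at −0.61, Mycn at 0.32 and Mycl at −0.74. Mxd1, Mxd3, Mxd4, Mxi1, Mnt and Mlx overlapped in both comparisons of the ligase-null line. Groups did not overlap for 4 members against Trim24-expressing cells (33.1% of all genes) and for 3 against degraded cells (40.4% of all genes). This is a line of its own, so the mutation and the line cannot be told apart. In it 5 of 5 markers of primitive endoderm were higher than in Trim24-expressing cells, at a summed 70.3 to 77.8 CPM against 9.92 to 12.6 CPM, and 5 of 5 markers of the 2-cell-like state were lower, at 20.2 to 25.4 CPM against 106 to 124 CPM. None of them was at 0, and their part in the result was not tested.

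**Figure D4:**
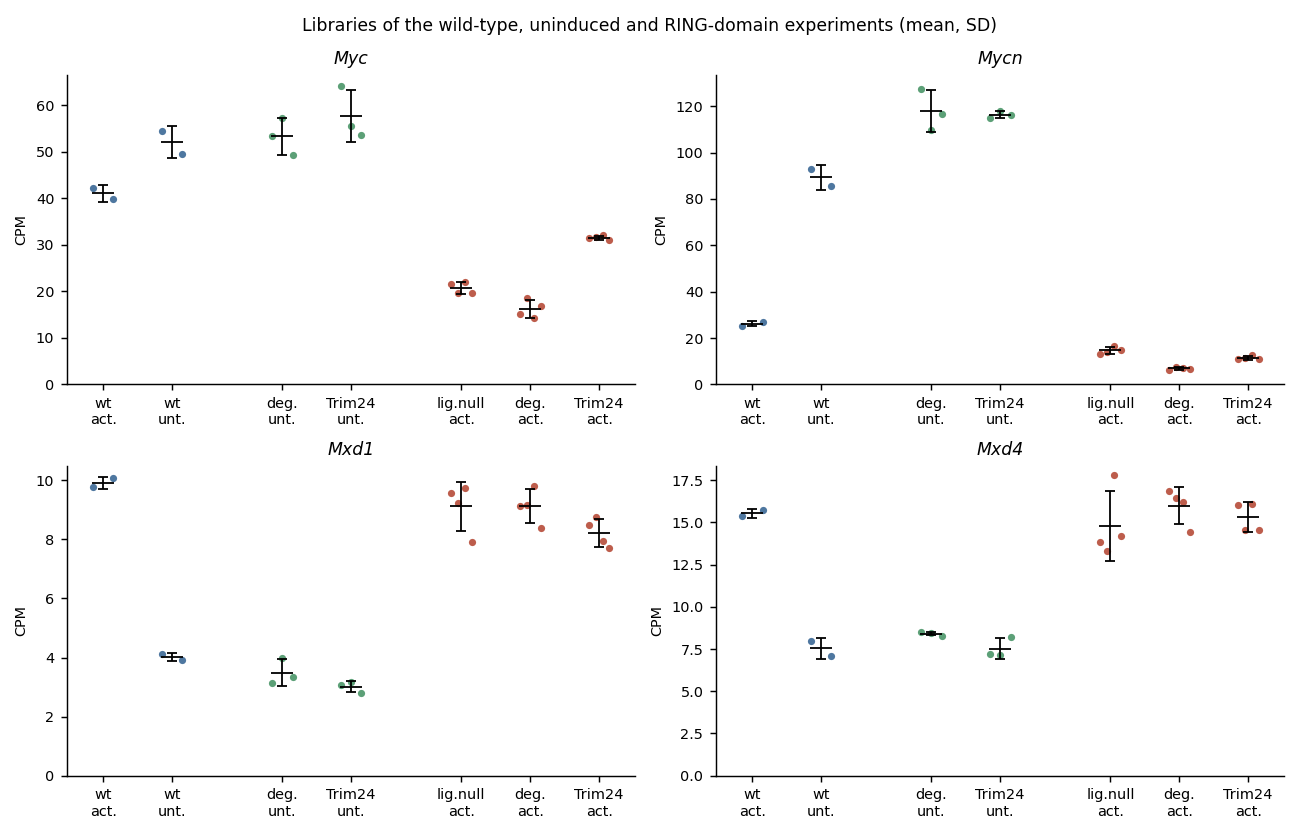
CPM (y axis, from 0) of Myc, Mycn, Mxd1 and Mxd4 in the wild-type (blue), uninduced (green) and RING-domain (red) experiments, with 1 point per library and the mean with SD in black; act., 4 h of doxorubicin; unt., no doxorubicin; deg., Trim24 degraded; lig.null, ligase-null line; Trim24, no dTAG13. Activated wild-type cells lie below untreated ones for Mycn and above them for Mxd1 and Mxd4, and all 4 degraded libraries of the RING-domain experiment lie below the 4 Trim24-expressing ones for Myc.

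The genes around the network were counted in 7 lists with 95 genes outside the members. After 4 h of activation with Trim24, 5 of these rose and 9 fell, or 14.7% of them beside 18.7% of all genes. After 12 h, 12 rose and 52 fell, or 67.4% beside 53.2% of all genes. These shares were not tested against each other. Among 14 genes of MYC protein turnover at 4 h, Fbxw7, the ubiquitin ligase subunit that marks MYC and MYCN for destruction, rose (2.31 ± 0.04, limma adjusted p = 2.1e-18), and 3 fell, of which Aurka, the kinase that shields MYCN from FBXW7, fell by 1.0 and Plk1 by 0.93 on the log2 scale. Fbxw7 averaged 286 ± 2.62 CPM after 4 h and 57.5 ± 1.22 CPM at 0 h. Of 13 inputs to Myc transcription 0 rose and 2 fell at 4 h, both receptor subunits for LIF, Il6st (−1.29 ± 0.05, adjusted p = 5.0e-14) and Lifr (−0.97 ± 0.04, adjusted p = 1.8e-13).

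Of 28 growth genes that MYC is known to raise, 2 fell at 4 h, the ribosome assembly gene Rrs1 (−0.86 ± 0.07) and the cyclin gene Ccnd2 (−0.83 ± 0.07), with a list median of −0.20 beside −0.01 over all genes. At 12 h 24 fell and 1 rose, where 53.2% of all genes were called in either direction, with a median of −1.26 beside 0.04. Of 8 genes that MYC is known to lower, Cdkn2b (2.73 ± 0.13) and Cdkn1a (1.74 ± 0.06), which encode cyclin-dependent kinase inhibitors, rose at 4 h and Cdkn1b fell (−1.16 ± 0.08). Cdkn1a is a p53 target as well. At 12 h this list was split: Cdkn2b (2.43), Thbs1 (2.42), Cdkn1a (1.69) and Gadd45g (0.82) rose. Cdkn1b (−1.66), Ndrg2 (−1.51) and Ndrg1 (−1.26) fell at that time. Among 20 cofactors Bin1, a MYC-binding tumour suppressor, rose (0.98 ± 0.08) and Sin3a, the MXD co-repressor, fell (−0.96 ± 0.04). Of 3 other partners of MAX or MLX, Mlxipl, which encodes ChREBP, rose (1.08 ± 0.14, limma adjusted p = 1.4e-06). In the 14 genes of the MGA-MAX Polycomb complex the 1 called at 4 h was Max itself.

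On Trim24 loss at 4 h none of the 95 genes was called by limma, 29 had an unadjusted p under 0.05, and limma-voom called 0 in each list. The growth genes had a median of −0.03 at 4 h and −0.10 at 8 h on Trim24 loss, beside 0.00 and −0.04 over all genes, while Myc was at −1.0 and −1.67. At 12 h 2 of the 95 were called, or 2.11% beside 4.11% of all genes: Cdkn1b (1.16, limma adjusted p = 8.1e-09) and Ndrg1 (0.81, adjusted p = 1.8e-05). In the RING-domain experiment 1 was called, the nucleolar gene Ncl (0.77, adjusted p = 8.9e-03), which was chosen after its value was seen. That call was lost with quantile normalization, median centring, the replicate block and all groups in the fit.

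The courses most like those of Myc and Mycn were searched over the 9 group means of the time course, among 11866 tested genes whose means spanned at least 0.75 on the log2 scale. For Myc these were Timp1 (Pearson r 0.994), Llph (0.988), Nifk (0.984), Ddx31 (0.984) and Manba (0.984). For Mycn they were Cnpy1 (0.997), Mex3a (0.996), Espl1 (0.993) and Tro (0.993). With 9 conditions in 1 time course, in which most genes move with time, these values describe likeness only. Among the members, Mxd1 and Mxd4 had r = 0.98 with each other, and r = −0.91 each with Myc. Their r was lower still with Max (−0.98 and −0.97) and with Mxi1 (−0.95 and −0.98), so this opposition was not particular to Myc.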

How the data were processed

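Total RNA libraries (TruSeq stranded) were demultiplexed by the authors with bcl2fastq 2.17 or 2.20, aligned to mm10 with STAR (1 of up to 20 matches placed at random) and counted over GENCODE protein-coding genes with featureCounts, without strand. The deposited values are log2 CPM from edgeR, TMM-normalized with a prior count of 8. CPM in the text are without the prior: 100% of values gave whole reads within 0.01.

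Groups, taken from titles, were compared within an experiment by limma 3.58.1 (R 4.3.3; trend, robust) on the deposited log2 values, with fold changes on that log2(CPM + prior) scale. Genes were tested when at least n libraries, n being the size of the smaller group, were 0.5 or more over the floor of −1.48. p was adjusted by Benjamini-Hochberg over genes tested. Named were all members, checks (Trim24, Trp53, Mdm2, Cdkn1a), up to 3 changed genes per list with the largest change at 4 h, and the 5 genes most like Myc and Mycn (1 is not reported here); others were chosen after their values were seen. The members and lists were chosen with earlier results of these data known. The fit was tested on simulated data for activation and Trim24 loss at 4 h only, with the same dispersion for all genes, so the other fits were not tested this way. Alternatives were limma without trend and robust, limma-voom on recovered reads, 2 scalings, 2 filters, a looser limit, a replicate block, all groups in the fit, and each library left out. Counting error limits members under about 3 CPM.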

Additional observations from a re-analysis of the deposited data

Results flagged for a closer look

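One library stood apart from its group for Max: in the RING-domain experiment, Trim24-expressing replicate 7 was at 50.4 CPM, and its gap to the nearest of the other 3 libraries was 0.957 of the group's range. The range itself was narrow, 50.4 to 52.2 CPM. This library also stood apart over all genes, at 26.7 to 27.6 times the sampling noise from the other 3. The check ran on 10 members in each of 3 groups of 4 libraries, 30 in all, and chance alone flags about 1 in 20.

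The effect of Trim24 loss differed between times for 6 members, by the test of the difference itself (limma). For Myc the log2 fold change at 8 h minus that at 4 h was −0.67. At 12 h minus 4 h the difference was 1.29 for Mycn, 0.67 for Mycl, 0.82 for Mxd1, 0.87 for Mxd3 and 0.45 for Mxi1. Both tests share the 4 h libraries. Of the 6 members, Mycn and Mxd1 kept this call in every alternative, whereas the calls of the others were each lost in some.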

How the results depend on the processing

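Called members kept their direction under every alternative run. Of the single values under alternatives, 2941 stayed on their side of the limits, 32 lost a call and 77 gained one. Counts that moved by more than 1.5 times, by setting, were these. With an adjusted p under 0.05 and no fold limit, activation gave 4 at 2 h and 9 at 4 h, Trim24 loss 2, 5 and 6 at 2, 4 and 12 h, wild-type cells 8, Trim24 loss in the RING-domain experiment 4, ligase-null cells 5 against Trim24-expressing and 3 against degraded cells, the step from 2 to 4 h 9 and that from 8 to 12 h 6. With limma-voom, activation at 2 h gave 2. Without trend and robust settings, Trim24 loss at 4 h gave 1, the difference of 8 h from 4 h 0 and that of 12 h from 4 h 2. With quantile normalization, Trim24 loss gave 1 at 4 h and 2 at 12 h. With median centring, Trim24 loss gave 1 at 4 h and 2 in the RING-domain experiment. With no filter, and with all groups in the fit, the difference of 8 h from 4 h gave 0. Smaller moves were 8 (quantile) and 9 (median centring) in place of 7 for activation at 8 h, 9 in place of 8 at 12 h and 7 in place of 6 for the step from 4 to 8 h (median centring), 2 in place of 3 for the step from 2 to 4 h (no filter), and 6 (quantile) or 4 (median centring, no filter) in place of 5 for the difference of 12 h from 4 h; the looser limit gave 9, 9, 9 and 7 for activation at 8 and 12 h, the step from 4 to 8 h and the last difference. The cause of these changes was not tested. Leaving out 1 library gave 1 to 2 members for activation at 2 h, 4 to 5 at 4 h, 7 to 8 at 8 h and 7 to 8 at 12 h; 1 to 2 for Trim24 loss at 4 h, 1 to 3 at 12 h and 1 to 2 in the RING-domain experiment; 2 to 3 in wild-type cells; 5 to 6 for the step from 4 to 8 h; 0 to 1 for the difference of 8 h from 4 h and 4 to 6 for that of 12 h from 4 h.

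Same-numbered libraries did not deviate together throughout: no comparison had every pair's correlation over 0.1 (lowest −0.21, highest 0.20). With so few libraries a group, this check cannot show that they were unpaired. With the replicate block 1 member was called for activation at 2 h, 4 at 4 h, 7 at 8 h and 8 at 12 h, as without it, and 4 in place of 5 for the difference of 12 h from 4 h (Mxi1, adjusted p = 0.015); other counts did not move. No paired analysis was possible for the ligase-null line because its libraries share 1 replicate number with the others.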

Other observations

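Trp53 mRNA itself was lower late in activation with Trim24, at 74.4 to 102 CPM after 12 h, against 278 to 309 CPM at 0 h. Mga, which pairs with MAX in a Polycomb complex, averaged 197 ± 12.2 CPM after 12 h with Trim24 and 433 ± 10.5 CPM at 0 h, and its log2 fold change of −1.14 was called by limma (adjusted p = 6.0e-12). Mlxip, which encodes a MONDO partner of MLX, averaged 50.2 ± 14.9 CPM after 12 h with Trim24 and 15.0 ± 1.13 CPM at 0 h (1.68, limma adjusted p = 7.1e-05). In ligase-null cells Mlxipl averaged 4.45 ± 0.19 CPM and in Trim24-expressing cells of that experiment 8.28 ± 0.61 CPM.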
